A study of Mus musculus with 12 samples.

Results

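The genes of fetal Leydig steroidogenesis were followed in mouse gonads at E13.5. The set consists of 9 named genes: Scarb1, Star, Cyp11a1, Hsd3b1, Hsd3b6, Cyp17a1, Insl3, Crhr1 and Prokr2. All 9 were found by symbol in both deposited tables, among 12845 genes. The 12 libraries came from 4 groups of 3: male soma, female soma, male primordial germ cells (PGCs) and female PGCs. All 4 groups shared the strain Oct4GFPxICR, in which an Oct4-GFP reporter marks germ cells, and none carried a treatment or a deletion. PGCs were the GFP-positive cells of the dissected gonads and soma was the GFP-negative remainder, separated by flow cytometry. Soma is therefore a mixture of all other cells of the dissected tissue, and Leydig cells were not sorted from it. The labels do not say whether replicates came from separate litters or pools, so p-values measure only the spread between these libraries.

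Fetal Leydig cells lie between the cords of the early testis and make the androgens that masculinize the fetus. Cholesterol is taken up through Scarb1, carried into mitochondria with the help of Star and cleaved to pregnenolone by Cyp11a1. The 3-beta-hydroxysteroid dehydrogenases (Hsd3b1, Hsd3b6) convert pregnenolone to progesterone, and Cyp17a1 leads on to androstenedione. Insl3 is a secreted Leydig cell hormone that acts in testis descent, and Crhr1 and Prokr2 are receptors for corticotropin-releasing hormone and for prokineticins.

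Depth ran from 6454322 to 24791414 reads per library. Levels are given as CPM, the read counts recovered from the deposited values and scaled to a common library total, and fold changes as log2 differences fitted by limma to the authors' read depth table unless the cell number table is named. The authors' transform draws low values together, so a fitted log2 difference can be smaller than the log2 of the CPM ratio. That held most for genes near 0, but not only there. For male against female soma, Scarb1 was at 3.09 in the read depth table and at 3.82 by voom, a fit to the recovered reads. Crhr1, with 0 reads in female soma, was at 5.35 and 9.54. Known markers followed the labels: Pou5f1, a germ cell factor, was at 238 CPM or more in each PGC library and at 8.67 or less in each soma library. Amh, a Sertoli cell hormone, was at 385 to 479 CPM in male soma and at most 2.45 in female soma, and Foxl2, a pregranulosa factor, was at 51.5 to 71.2 CPM in female soma and at most 1.74 in male soma. Adrenal medulla genes stood apart in some libraries. Dbh, which makes noradrenaline, was at 138 and 242 CPM in female soma replicates 1 and 2 and at 18.8 in male soma replicate 3. The labels give no batch.

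All 9 genes differed between male and female soma in the read depth table. In each of them the 3 male soma libraries did not overlap the 3 female soma libraries in CPM. Overlap was not counted over all genes, so this is no result about the members. By adjusted p under 0.05, 8 were higher and 1, Hsd3b6, was lower in male soma. Over all genes, 11% were called higher and 13.3% lower. In the cell number table Hsd3b6 was not called (log2 difference -1.23, adjusted p 0.130). The members' median log2 difference was 5.37, or 5.58 with Crhr1, which had 0 reads in female soma, set at its bound, and that of all genes was -0.01. Among the log2 differences of the 12845 genes, Cyp17a1 ranked 1, Cyp11a1 ranked 2, Star ranked 4, Hsd3b1 ranked 6, Prokr2 ranked 7 and Crhr1 ranked 8. Insl3 ranked 13 and Scarb1 ranked 44. These ranks depend on the scaling. In the cell number table they were 1 for Cyp17a1, 2 for Crhr1, 3 for Cyp11a1, 4 for Insl3, 14 for Star, 18 for Prokr2, 23 for Hsd3b1 and 70 for Scarb1. Every gene in the tables reached 5.07 CPM in at least 3 libraries, and these members met that floor through the groups where they were high. In a mixed tissue, fewer cells of a type and less RNA per cell cannot be told apart.

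**Figure D1:**
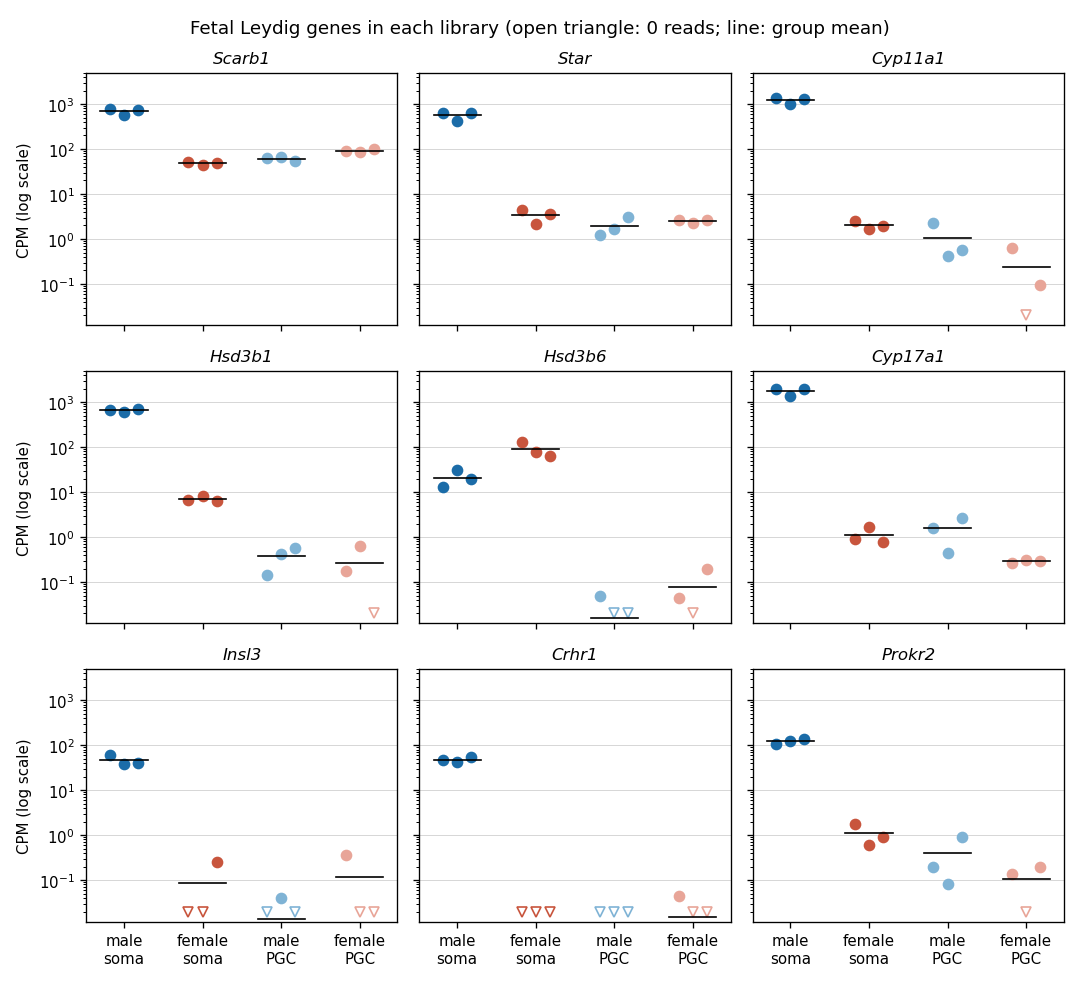
Level of each member in every library, in CPM on a log scale, by group (points are libraries, lines are group means, open triangles mark 0 reads). Scarb1, Star, Cyp11a1, Hsd3b1, Cyp17a1, Insl3, Crhr1 and Prokr2 were highest in the 3 male soma libraries, and Hsd3b6 was highest in the 3 female soma libraries.

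Scarb1, the receptor that takes up cholesterol from high-density lipoprotein, lies at chr5:125277087-125341094 (ENSMUSG00000037936.15, minus strand, GRCm38). It was at 762, 562 and 753 CPM in male soma replicates 1 to 3 and at 51.1, 45.1 and 49.7 in female soma. Male PGCs held 62.3, 66.9 and 55.4 CPM and female PGCs 92.3, 86.0 and 98.7. Of the 9 genes only Scarb1 exceeded 5 CPM in any PGC library, and its lowest group was female soma. The male to female ratio in soma was 14.2, the lowest of the 8 genes that were higher in male soma, with a log2 difference of 3.09 ± 0.09 (SE, adjusted p 1.06e-10).

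Star delivers cholesterol to the inner mitochondrial membrane, the regulated step of steroid synthesis, and lies at chr8:25806555-25815982 (ENSMUSG00000031574.8, plus strand). Its level was 640.5, 409 and 620.0 CPM in male soma and 4.33, 2.15 and 3.69 in female soma. Female soma and PGCs were all under 5 CPM: male PGCs held 1.24, 1.64 and 3.11 CPM, and female PGCs 2.64, 2.32 and 2.68. The ratio of male to female soma was 164, and the log2 difference 6.03 ± 0.23 (SE, adjusted p 9.13e-10).

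The P450 enzymes gave the highest levels of the set. Cyp11a1, the side-chain cleavage enzyme at chr9:58006411-58027023 (ENSMUSG00000032323.13, plus strand), was at 1365, 983 and 1321 CPM in male soma. In female soma it was at 2.56, 1.69 and 1.91 CPM, a ratio of 596 and a log2 difference of 7.73 ± 0.35 (SE, adjusted p 4.25e-09). Cyp17a1, the 17-alpha-hydroxylase and 17,20-lyase at chr19:46667165-46673172 (ENSMUSG00000003555.8, minus strand), was at 1968, 1335 and 1955 CPM in male soma. Female soma held 0.889, 1.69 and 0.763 CPM of Cyp17a1, which came to 25 reads over the group against 87061 in male soma. This ratio, 1574, was the highest among members with more than 3 reads in each group, and the log2 difference was 8.84 ± 0.34 (SE, adjusted p 9.13e-10).

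The genes Hsd3b1 and Hsd3b6 are neighbours on chromosome 3 and encode isoenzymes of the same step. Hsd3b1 lies at chr3:98852194-98859794 (ENSMUSG00000027871.16) and Hsd3b6 at chr3:98805504-98814443 (ENSMUSG00000027869.14), both on the minus strand. Their coding sequences are 1119 bases each in GENCODE vM21 and 89.99% identical, with 112 mismatches. The first 150 coding bases are shown because reads can be assigned to one or the other gene only where they differ, and capitals mark the 25 mismatches in this stretch (GRCm38, spliced, chr3:98856154-98857964 for Hsd3b1 and chr3:98807925-98811046 for Hsd3b6).
Hsd3b1: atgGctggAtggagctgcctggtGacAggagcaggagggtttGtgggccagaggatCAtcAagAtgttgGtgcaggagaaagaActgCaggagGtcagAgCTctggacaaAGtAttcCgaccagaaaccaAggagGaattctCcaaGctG
Hsd3b6: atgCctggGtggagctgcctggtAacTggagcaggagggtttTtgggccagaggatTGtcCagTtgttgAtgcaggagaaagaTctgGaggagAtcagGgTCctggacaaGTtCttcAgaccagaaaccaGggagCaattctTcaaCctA
The longest run shared by both coding sequences is 72 bases. Of all stretches of 50 bases, 38 occur in both transcripts, which is 2.10% of those in Hsd3b1 and 2.17% of those in Hsd3b6. Against all annotated transcripts, 4.98% of the Hsd3b1 stretches and 16.0% of the Hsd3b6 stretches also occur in another gene, among them the unmeasured Hsd3b2, Hsd3b3 and Hsd3b5. Besides the pair itself, the measured gene Mapkap1 shares stretches with Hsd3b6. Reads from those stretches are uncertain between copies.

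In CPM the pair was reciprocal between the sexes. Hsd3b1 was at 673, 608 and 704 CPM in male soma and at 6.56, 8.13 and 6.36 in female soma, a ratio of 94.3 (log2 difference 5.58 ± 0.30 SE, adjusted p 1.87e-08). Hsd3b6, the isoform known from adult Leydig cells, was at 12.7, 30.3 and 19.4 CPM in male soma and at 127, 79.5 and 62.4 in female soma. Its mean was 4.31 times higher in female soma (89.6 ± 33.4 against 20.8 ± 8.87 CPM, SD, n = 3 each), with a log2 difference for male against female soma of -1.70 ± 0.25 (SE, adjusted p 0.000215). Within the pair, Hsd3b6 made up 1.85%, 4.74% and 2.68% of reads in the male soma libraries. In female soma it made up 95.1%, 90.7% and 90.8%, on 491 to 1141 reads of Hsd3b6 and 50 to 59 of Hsd3b1 per library.

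The adrenal genes differed between the soma libraries too. The 5 measured genes of the adrenal list (of 10 listed) summed to 4.45 to 577 CPM in female soma and to 13.4 to 76.2 in male soma. Of the medulla genes, Dbh was at 138, 242 and 2.03 CPM in female soma replicates 1 to 3, Th at 50.1, 93.3 and 0.890, and Chga at 108, 242 and 1.53. Hsd3b6 was at 127, 79.5 and 62.4 CPM in the same libraries. Of the cortex enzymes, Cyp11b1 had 0 reads in all 3 female soma libraries and 20.9, 6.86 and 17.4 CPM in male soma. Cyp21a1 was at 0.556, 0 and 0 CPM in female soma and at 11.8, 5.61 and 13.3 in male soma. Whether these libraries held adrenal RNA, and any part of it in the Hsd3b6 values, was not tested. Without female soma replicates 1 and 2 and the shallow female PGC replicate 2, Hsd3b6 was called lower in male soma (log2 difference -1.33, adjusted p 0.0203), with 1 female soma library left, assumed to vary like the other groups.

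**Figure D2:**
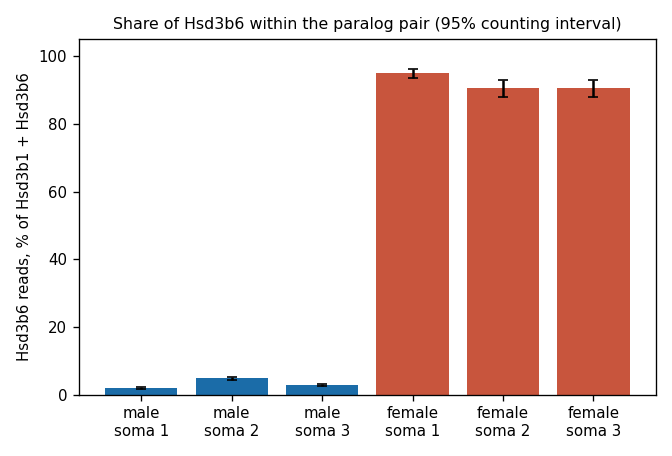
Share of Hsd3b6 among the reads of Hsd3b1 and Hsd3b6 together, in percent, for each soma library, with exact (Clopper-Pearson) 95% binomial intervals that cover counting error only. The share was at most 4.74% in male soma and at least 90.7% in female soma.

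In male soma the hormone and both receptors were lower in CPM than each enzyme of the set except Hsd3b6. Insl3, at chr8:71689214-71690575 (ENSMUSG00000079019.2, plus strand), was at 60.3, 38.2 and 39.3 CPM in male soma. The other groups held 2 reads in female soma, 1 in male PGCs and 8 in female PGCs. The soma ratio was 496 with a 95% counting interval of 137 to 4099, and the fitted log2 difference was 4.55 ± 0.22 (SE, adjusted p 6.16e-09). Of the 623 exon bases of Insl3, 404 (64.8%) lie inside exons of Jak3 on the same strand, so its counts are uncertain. Jak3, a kinase of blood cells, was at 19.2 ± 1.14 CPM in male soma, 15.2 ± 5.14 in female soma, 12.3 ± 6.69 in male PGCs and 40.8 ± 15.1 in female PGCs (SD, n = 3). Whether reads were shared between these genes was not tested.

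Crhr1, at chr11:104132855-104175523 (ENSMUSG00000018634.10, plus strand), was at 46.4, 41.6 and 54.8 CPM in male soma. It had 0 reads in all female soma and male PGC libraries and 1 read in female PGCs. Pooled over the libraries of a group, it was at least 367-fold higher in male than in female soma, with a count of 0 bounded by 3 reads over the group. Prokr2, at chr2:132337733-132385447 (ENSMUSG00000050558.13, minus strand), was at 106, 126 and 134 CPM in male soma and at 1.78, 0.614 and 0.890 in female soma. Its ratio was 112 and its log2 difference 5.37 ± 0.32 (SE, adjusted p 5.79e-08). The Crhr1 log2 difference was 5.35 ± 0.11 (SE, adjusted p 1.09e-12).

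Per kilobase of the longest coding transcript, Cyp17a1 (729 ± 150) and Cyp11a1 (577 ± 98.6 CPM per kb, SD, n = 3) led in male soma. Their ranges overlapped across libraries, but both were lowest in replicate 2 and highest in replicate 1. In those 2 libraries Cyp17a1 was at 556 and 819 CPM per kb and Cyp11a1 at 464 and 644. Hsd3b1 followed at 357 ± 26.5, Scarb1 at 275 ± 45.0 and Star at 138 ± 31.6 CPM per kb. The low end held Insl3 at 73.7 ± 20.01, Prokr2 at 27.2 ± 3.21, Crhr1 at 19.3 ± 2.71 and Hsd3b6 at 11.5 ± 4.92 CPM per kb. Cyp17a1 and Cyp11a1 were the only neighbours in this order whose libraries overlapped, although Crhr1 (lowest 16.9) and Hsd3b6 (highest 16.8) nearly met. With all annotated exons as length, Hsd3b1 moved to rank 2, above Cyp11a1, Star moved above Scarb1, and Crhr1 above Prokr2. In female soma the order was different: Hsd3b6 (49.7 ± 18.5) and Scarb1 (19.3 ± 1.25) led, Hsd3b1 was at 3.78 ± 0.524, and each of the rest was under 1 CPM per kb.

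Most members had their lowest male soma level in the same library. Replicate 2 was the lowest of the 3 for 7 members on the CPM scale (Scarb1, Star, Cyp11a1, Hsd3b1, Cyp17a1, Insl3 and Crhr1). Hsd3b6 ran the other way, with its highest male value in replicate 2. The summed CPM of the 9 genes was 5634, 4133 and 5601 in male soma replicates 1 to 3. It was 194, 139 and 126 in female soma, where Hsd3b6 and Scarb1 supplied most reads. On the cell number scale, replicate 3 of male soma was highest for all 9 members, and its median over all genes was also highest (5.25 against 4.33 and 4.29).

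Against male PGCs, all 9 genes were called higher in male soma, where 43.7% of all genes were called higher and 39.1% lower. Log2 differences ran from 2.72 ± 0.09 for Scarb1 to 8.62 ± 0.34 for Cyp17a1 (SE, adjusted p 8.48e-12 and 2.79e-11), with a median of 6.34, or 6.52 with Crhr1 at its bound, against 0.06 for all genes. The mean CPM ratio was 1775 for Hsd3b1, 1139 for Cyp11a1, 1123 for Cyp17a1, 311 for Prokr2, 279 for Star and 11.3 for Scarb1. Crhr1 was at least 988-fold higher in pooled reads. Insl3 and Hsd3b6 had 1 read each in male PGCs. Genes of the Sertoli list were read in male PGC libraries too. The summed level of the 14 measured Sertoli genes (of 15 listed) was 3.69 to 7.64% of its male soma mean, with none at 0. That sum was 81.9 to 170 CPM in male PGCs and 35.9 to 53.5 in female PGCs. Of the 14 genes, 9 were called higher and 2 lower in male than in female PGCs. Over all genes these shares were 32.5% and 32.8%. Amh was at 27.7 to 67.6 CPM in male PGCs, 6.35 to 15.5% of its male soma mean, and at most 0.465 CPM in female PGCs. Cyp11a1 reached only 0.0335 to 0.184% and Cyp17a1 0.0258 to 0.151% of their male soma means. The part of carried-over somatic RNA in the PGC values was not tested.

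In females the soma and PGCs differed less, and not in one direction. Of the 9 genes, 5 were higher in soma and 1 lower, where 42.3% of all genes were called higher and 38.7% lower; the median was 1.02 against 0.05 for all genes. Hsd3b6 led, at a mean of 89.6 CPM in soma against 3 reads over the 3 PGC libraries (log2 difference 5.94 ± 0.25 SE, adjusted p 1.08e-10). Hsd3b1 was 26.3 times higher in soma (3.15 ± 0.30, adjusted p 2.36e-07). Cyp11a1 (1.79 ± 0.35, adjusted p 0.000316), Prokr2 (1.38 ± 0.32, adjusted p 0.00127) and Cyp17a1 (1.02 ± 0.34, adjusted p 0.0130) were called higher from means of 2.05, 1.09 and 1.11 CPM in soma. With voom on the recovered reads, the adjusted p was 0.0745 for Cyp11a1 and 0.422 for Cyp17a1, and without female soma replicate 2 it was 0.0563 for Cyp17a1. Scarb1 was lower in soma, at 0.527 of the PGC mean (-0.71 ± 0.09, adjusted p 7.36e-06). Star (0.26 ± 0.23), Insl3 (-0.03 ± 0.22) and Crhr1 (0.02 ± 0.11) did not pass the test.

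**Figure D3:**
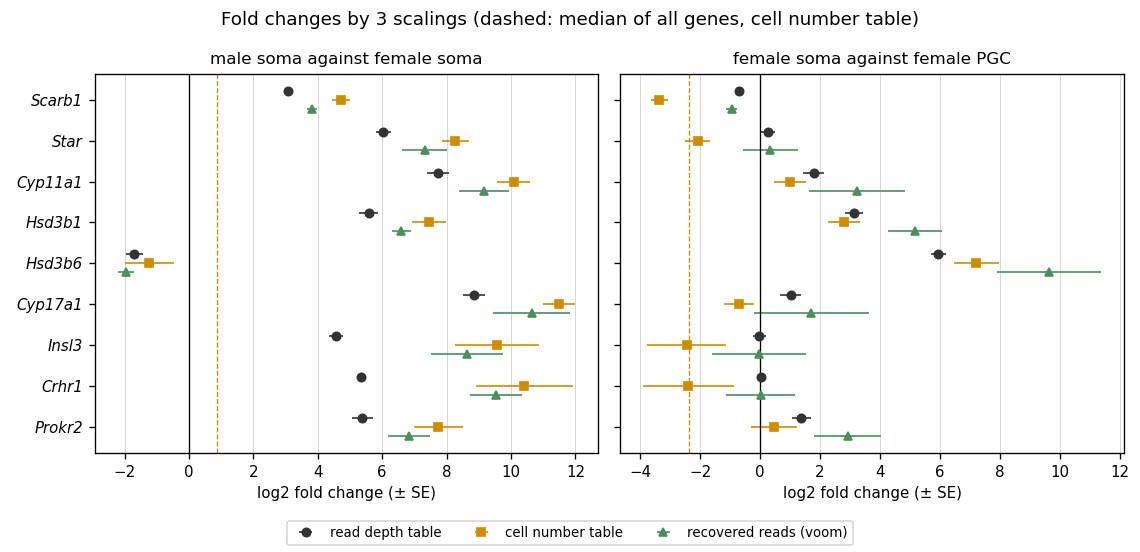
Log2 fold changes of the members (± SE) by the read depth table, the cell number table and voom on recovered reads, for male against female soma (left) and female soma against female PGC (right). On the left, Hsd3b6 lies below 0 and the other 8 above 3 in all 3 scalings; the dashed line marks the median of all genes in the cell number table, 0.86 on the left and -2.36 on the right.

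In PGCs of either sex, every member but Scarb1 had a mean under 3 CPM. Cyp17a1 was at 1.58, 0.451 and 2.65 CPM in male PGCs and at 0.269, 0.310 and 0.287 in female PGCs, without overlap (log2 difference 1.24 ± 0.34 SE, adjusted p 0.00536). Cyp11a1 was at 2.25, 0.410 and 0.565 CPM in male and 0.627, 0 and 0.0956 in female PGCs, with overlap (0.98 ± 0.35, adjusted p 0.0244). Scarb1 was lower in male PGCs (-0.34 ± 0.09, adjusted p 0.00533). These made 2 members higher and 1 lower, where 32.5% and 32.8% of all genes were called. Voom called neither rise (adjusted p 0.271 for Cyp11a1 and 0.312 for Cyp17a1), and that of Cyp11a1 was lost without male PGC replicate 1 (0.48, adjusted p 0.124), without female PGC replicate 2 (0.84, adjusted p 0.0847) or without female PGC replicate 3 (0.82, adjusted p 0.0893).

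The difference between soma and PGCs was itself unequal in the sexes. In the test of that interaction, 8 members had a larger soma excess in males and Hsd3b6 a smaller one, where 27.9% and 28.9% of all genes were called. The largest was Cyp17a1 (7.60 ± 0.48 SE, adjusted p 5.45e-08), which ranked 1 of 12845 genes, and 8 in the cell number table. The smallest of the 8 members was Scarb1 (3.43 ± 0.13, adjusted p 9.20e-10). Hsd3b6 gave -1.35 ± 0.35 (adjusted p 0.00515), with 1 read in male PGCs and 3 in female PGCs. With voom its value was -0.48 and the adjusted p 0.883, and without the 3 female libraries named above it was -0.99 with an adjusted p of 0.0669. In the cell number table the same 8 were called larger in males and none smaller, where 42.8% and 5.16% of all genes were called (3189 and 3802 genes with median centring), and Hsd3b6 was at 0.31 ± 1.06 (adjusted p 0.827).

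The comparisons were repeated on values per cell. The cell number table rests on spike-in RNA added per cell, and in it the median gene was 0.86 (log2) higher in male than in female soma. There 63.6% of all genes (8171) were called higher and 2.86% (367) lower in male soma. Without female soma replicate 2 the higher calls were 5093, without the 3 female libraries named above 427, with only the groups compared 3431, and with each library centred on its median 1074, with 1296 lower. The same 8 members were called higher, from 4.72 ± 0.28 for Scarb1 to 11.50 ± 0.50 for Cyp17a1 (SE). Hsd3b6 was at -1.23 ± 0.75 and not called (adjusted p 0.130), but with each library centred on its median it was at -2.12 (adjusted p 0.0362). Against male PGCs all 9 were higher per cell, from 1.86 ± 0.28 for Scarb1 to 9.32 ± 1.51 for Crhr1, where 19.8% of all genes were called higher and 64% lower (4785 and 5944 genes with median centring). In females only Hsd3b6 (7.21 ± 0.75) and Hsd3b1 (2.79 ± 0.54) were higher in soma than in PGCs per cell, while Scarb1 (-3.35 ± 0.28) and Star (-2.07 ± 0.42) were lower, where 11.5% and 77.2% of genes were called (4675 and 5690 genes with median centring). Between the sexes' PGCs, Cyp11a1 (2.21 ± 0.52) and Cyp17a1 (2.01 ± 0.50) were higher per cell in males and no member was lower, where 17.7% and 24.3% of genes were called. In this fit the spread of a gene came wholly from the trend with level, and SEs do not reflect the gene's own replicates.

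The related genes were grouped by role. Counts for these lists are for male against female soma in the read depth table. There 11% of all genes were called higher and 13.3% lower, with a median of -0.01. Of 20 measured steroid enzymes and electron donors outside the set, 12 were higher and 1 lower in male soma, with a median log2 difference of 0.45. Fdxr and Fdx1 pass electrons to the mitochondrial P450 enzymes. Fdxr was at 300.0 ± 22.8 CPM in male soma against 43.7 ± 6.63 in female soma (SD, n = 3; log2 difference 2.28, adjusted p 1.48e-08), and Fdx1 at 205 ± 13.8 against 19.9 ± 2.00 (2.64, adjusted p 1.06e-10). Hsd11b2, which inactivates glucocorticoids, was at 259 ± 32.7 against 40.9 ± 13.8 CPM (2.24, adjusted p 3.68e-06). Hsd17b3 makes testosterone from androstenedione, in the fetal mouse testis mainly in Sertoli cells. It was at 24.6 ± 8.14 CPM in male soma and had 0 reads in female soma, at least 174-fold higher in pooled reads (fitted 3.25, adjusted p 1.40e-07). Akr1c14, a 3-alpha-hydroxysteroid dehydrogenase named after its value was seen, was the 1 lower gene (2.16 ± 1.00 against 10.9 ± 2.55 CPM; -1.14, adjusted p 0.000136).

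Of 18 measured genes of cholesterol uptake, storage and transport besides Scarb1 and Star, 6 were higher and 0 lower, with a median of 0.08. Gramd1b, a sterol transfer protein, was at 130 ± 14.5 CPM in male against 10.4 ± 0.0689 in female soma (2.83, adjusted p 3.95e-07). The most abundant, Lrp1 and Apoe, did not pass the test (0.27 and -0.33, adjusted p 0.147 and 0.118).

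Among 20 transcription factors of steroidogenic cells, 7 were higher and 1 lower, with a median of 0.38. Nr5a1, the factor that switches on steroid enzyme genes, was at 550 ± 55.4 CPM in male and 68.2 ± 9.54 in female soma (2.56, adjusted p 0.000868). It is also made by Sertoli cells. Nr2f2, the other most abundant factor, did not pass (0.36, adjusted p 0.497). Nr2f1, named after its value was seen, was the 1 lower (-0.99, adjusted p 0.00534).

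Of 13 genes of peptide hormone signalling, 7 were higher and 2 lower, with a median of 0.30. Lhcgr, the luteinizing hormone receptor, was at 72.4 ± 11.2 CPM in male soma and 0.937 ± 0.0569 in female soma (5.26, adjusted p 1.74e-08). Prkar2b, a regulatory subunit of protein kinase A, was at 443 ± 62.4 against 54.8 ± 17.4 CPM (2.45, adjusted p 2.50e-08), while the abundant Gnas and Prkar1a rose by 0.26 and 0.45 (adjusted p 0.0191 and 2.09e-05). The 2 lower genes, named after their values were seen, were partners of members. Rxfp2, the receptor for Insl3, was at 6.34, 17.9 and 25.5 CPM in male soma and at 140, 39.6 and 95.4 in female soma (-1.97, adjusted p 0.00466). Prokr1, the paralog of Prokr2, was at 4.37, 7.75 and 5.71 CPM in male and 15.5, 16.9 and 16.0 in female soma (-0.85, adjusted p 0.00245).

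Signals that act on Leydig precursors included 5 of 13 Hedgehog and PDGF genes that were higher and 1 that was lower, with a median of 0.68. Dhh, the Sertoli cell ligand, was at 49.5 ± 4.18 against 0.582 ± 0.171 CPM (4.06, adjusted p 3.17e-08), and Hhip, a Hedgehog target and inhibitor, at 191 ± 40.2 against 8.57 ± 0.606 (3.62, adjusted p 5.72e-07). The PDGF receptors Pdgfra (0.86, adjusted p 0.0766) and Pdgfrb (0.64, adjusted p 0.129) did not pass the test, and Pdgfc, named after its value was seen, was the 1 lower (-1.37, adjusted p 0.000235). Of 5 measured genes listed as other fetal Leydig markers (of 7 listed), 3 were higher: Lhcgr, Gramd1b and Vsnl1 (2.05). Vcam1 did not pass (0.23), and Thbs2 was lower in male soma, at 26.1, 20.4 and 26.2 CPM against 117, 169 and 99.2 (-1.88, adjusted p 0.0177). Lhcgr and Gramd1b also stand in the lists above.

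**Figure D4:**
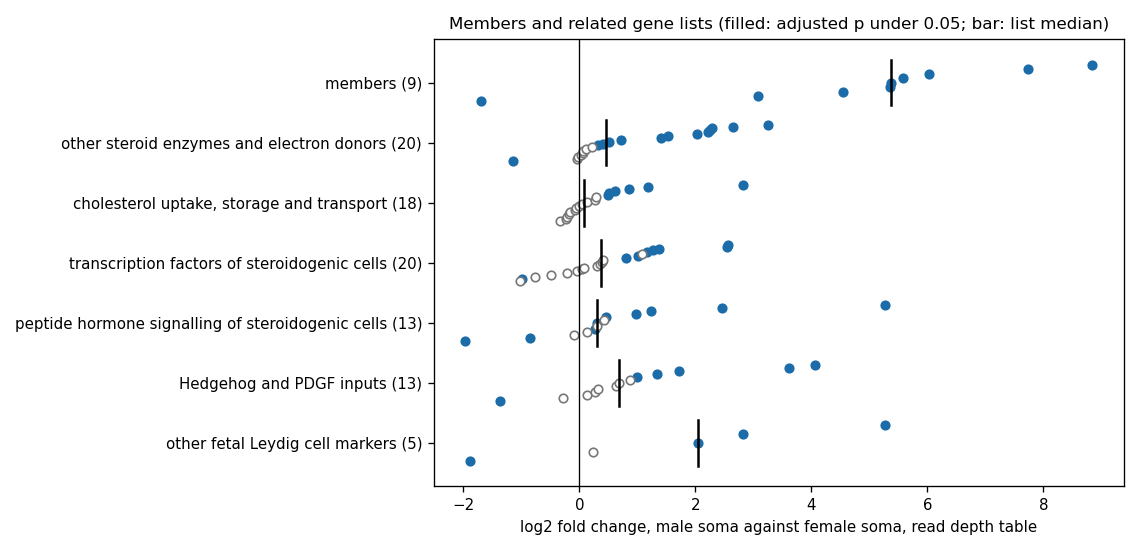
Log2 fold change for male against female soma in the read depth table, for the members and each related list with its number of measured genes (points are genes, filled where the adjusted p is under 0.05; bars are list medians). The member median, 5.37, lies above that of each related list, 0.08 to 2.05.

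Markers of other cell types also differed between the soma samples. Summed levels of the 14 measured Sertoli genes were 2114 to 2300 CPM in male and 274 to 324 in female soma. Those of 7 erythroid genes (of 8 listed) were 3398 to 8588 against 17596 to 29556, and of 9 macrophage genes (of 10 listed) 155 to 214 against 318 to 502. The 9 mesonephric epithelium genes summed to 99.3 to 119 CPM in male and 229 to 345 in female soma, with 7 lower in male soma. Of all genes, 13.3% were called lower there. The 10 germ cell genes summed to 75.9 to 94.2 against 76.3 to 250 CPM, with 5 lower, and Ddx4 was at 24.0, 35.6 and 2.16 CPM in female soma replicates 1 to 3. Except for the germ cell gene Nanos2, at 0 in female soma, none of these genes was at 0 in a soma group. Nr5a1 and Gata4 of the Sertoli list and Emx2 of the mesonephric list also stand among the transcription factors above. In male and female soma Nr5a1 was at 550 and 68.2 CPM, Gata4 at 368 and 132, and Emx2 at 43.0 and 107. These sums are thus not particular to the named cell types. The part of these other cell types in the member values was not tested. The 12 gonadal stroma genes summed to 12797 to 14775 CPM in male and 15051 to 16623 in female soma.

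The genes most like the members were ranked by Pearson correlation of log2(CPM + 0.5) with the mean of the scaled members over the 12 libraries. The top 10 were Casq2 (r = 0.998), Agt (0.996), Lhcgr (0.995), Oca2 (0.993), Prlr (0.992), Nppc (0.992), Oxtr (0.991), Nr4a1 (0.990), Kcns2 (0.987) and Nts (0.986). The members themselves had r of 0.928 to 0.994, except Hsd3b6 at 0.526. With 3 of 12 libraries high, such values mainly reflect the contrast of male soma with the rest. Casq2, a calcium-binding protein of the sarcoplasmic reticulum, was at 66.7 ± 5.72 CPM in male soma against 0.556 ± 0.179 in female soma (SD, n = 3). Agt, the precursor of angiotensin, was at 49.0 ± 8.86 against 0.651 ± 0.351 CPM. The prolactin receptor gene Prlr was at 108 ± 6.17 against 2.07 ± 0.153 CPM and the oxytocin receptor gene Oxtr at 65.1 ± 1.57 against 0.746 ± 0.248. Since the ranking used these libraries, the levels are a description; the log2 difference between male and female soma ran from 1.38 (Nr4a1) to 5.26 (Lhcgr).

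**Figure D5:**
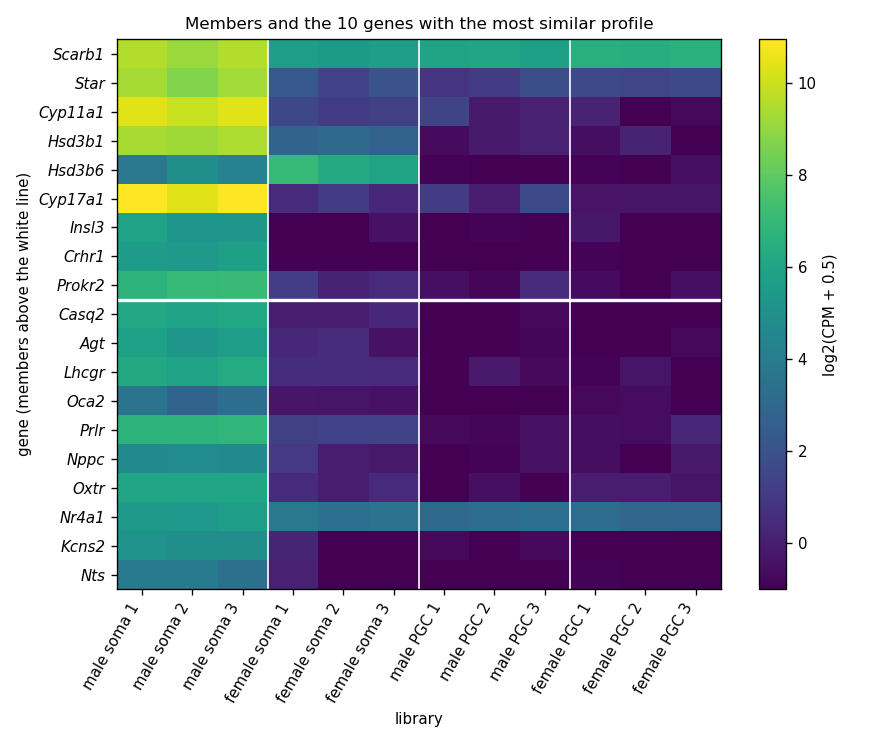
Log2(CPM + 0.5) of the members (above the white line) and of the 10 genes with the most similar profile (below it) in each of the 12 libraries. The 3 male soma columns are brightest in each row except Hsd3b6, whose 3 female soma libraries are highest.

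Sequences upstream of annotated transcription starts were taken from RefSeq (GRCm38.p6) for 6 of 9 members in 7 windows, and not for Star, Cyp17a1 and Scarb1. In GENCODE vM21 all 250 bases of 1 of the Cyp11a1 windows and 38 of the Insl3 window lie in annotated exons. The 250 bases before the start were searched on both strands for 2 short motifs. The first was AGGTCA, the core bound by Nr5a1 and other nuclear receptors, which was in 2 of 7 member windows and in 14.02% of 32851 windows of the same length. The second was AGATAA, a motif of GATA factors, which was in 2 of 7 member windows and in 9.99% of all. The longer form of the nuclear receptor core, AAGGTCA, was in 0 of 7 and in 4.08% of all. The windows of the Hsd3b pair are shown because these neighbours ran in opposite directions, with the GATA motif or its reverse complement in capitals (chr3:98859795-98860044 for Hsd3b1 and chr3:98814444-98814693 for Hsd3b6, minus strand).
Hsd3b1: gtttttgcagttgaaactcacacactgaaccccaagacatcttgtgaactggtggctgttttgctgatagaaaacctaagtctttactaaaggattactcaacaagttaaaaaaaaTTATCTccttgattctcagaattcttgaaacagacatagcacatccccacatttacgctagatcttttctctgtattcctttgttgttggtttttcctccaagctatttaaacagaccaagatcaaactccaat
Hsd3b6: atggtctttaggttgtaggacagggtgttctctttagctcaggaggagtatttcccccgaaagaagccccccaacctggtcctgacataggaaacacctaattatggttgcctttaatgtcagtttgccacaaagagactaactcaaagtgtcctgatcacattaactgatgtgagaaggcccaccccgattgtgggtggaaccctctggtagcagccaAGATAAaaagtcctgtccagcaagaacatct
The motif lay 134 to 129 bases before the start in Hsd3b1, on the opposite strand, and 31 to 26 bases before it in Hsd3b6. The AGGTCA matches were 28 to 23 bases before a Cyp11a1 start, in the exonic window inside the gene (chr9:58014912-58014941, plus strand), and 144 to 139 before that of Prokr2 (chr2:132385574-132385603, minus strand), shown with 12 bases on each side and the motif in capitals.
Cyp11a1: gaggaaggggggAGGTCAccgctccatcag
Prokr2: ggccagctgctgAGGTCAcaacgggttcaa
A match describes the letters only. The other Cyp11a1 window and those of Insl3 and Crhr1 held no match. The Cyp11a1 windows, chr9:57997774-57998023 and chr9:58014702-58014951, do not adjoin the GENCODE gene start at 58006411. The bases before that start were not searched.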

How the data were processed

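RNA of sorted E13.5 gonad cells was sequenced in 12 libraries with spike-in RNA added per cell, per the labels' protocols. Among other tools, the submitters' processing notes name TopHat2 2.0.9, HTSeq 0.6.1p1, Trim Galore 0.4.0 and limma 3.28.14 with build mm10, without roles. The counting strand and the annotation are not given. The authors deposited 2 tables of log2 values for 12845 genes, one read as normalized to cell number and one to read depth, whose transform is not given. Cell number values were inverted to reads: 100% equalled log2 of a whole number plus 0.5 over a library size, within 0.001 reads. These reads gave CPM and depth, which sets the precision of low values.

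The main test was limma 3.58.1 (R 4.3.3) on the deposited log2 values, fitted to all libraries as 4 group means with a trend of variance on level. P-values were adjusted by Benjamini-Hochberg over the 12845 genes, with calls at 0.05, and the code was tested on simulated data. As an alternative, voom was run on the recovered reads after TMM scaling. Replicates of a group differed by more than sampling noise, with a chi-square of 5.43 to 30.4 for each degree of freedom. Other alternatives were each library left out, 3 female libraries left out together, filters, centring, quantile normalization, variance settings, a replicate block and log2(CPM + 1) or log2(CPM + 0.1). Members and lists were chosen with earlier results of these data known. Genes outside the members were named by list, as the 2 most abundant in male soma and the 2 with the largest called change. Others were named by likeness to the members, as label checks or as shared between lists. Of the genes so chosen, 2 are not reported here. Coordinates are from GENCODE vM21 (GRCm38). Figures used Python 3.11.15 and matplotlib 3.10.9.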

Additional observations from a re-analysis of the deposited data

Results flagged for a closer look

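The difference between soma and PGCs was larger in males than in females for 8 members by the interaction test, and smaller for Hsd3b6 in the read depth table alone, where 27.9% of all genes were called larger and 28.9% smaller. In the read depth table the interaction was 7.60 for Cyp17a1, 6.75 for Cyp11a1, 6.26 for Star, 5.49 for Crhr1, 5.32 for Hsd3b1, 4.96 for Prokr2, 4.95 for Insl3, 3.43 for Scarb1 and -1.35 for Hsd3b6, all on the log2 scale. In the cell number table it was 11.71 for Crhr1, 11.16 for Insl3, 9.49 for Cyp17a1, 8.63 for Star, 7.87 for Cyp11a1, 6.70 for Prokr2, 6.46 for Hsd3b1 and 5.21 for Scarb1, where 42.8% of all genes were called larger and 5.16% smaller. Hsd3b6 was at 0.31 there (adjusted p 0.827), and at -0.48 with voom (adjusted p 0.883). The fitted values of Crhr1 and Insl3 rest on 0 to 8 reads per group outside male soma and are no bound on their ratios.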

How the results depend on the processing

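Of the alternatives run for single members, 1863 kept direction and side of the threshold, 31 gained a call, 19 lost one and 24 changed sign; none of the 24 was in male soma against female soma or male PGCs. There, read depth values of the 8 higher members stayed past the threshold in every alternative that could be computed, and Hsd3b6 ran from -2.13 to -1.33 (highest adjusted p 0.0203). In the cell number table Hsd3b6 ran from -2.47 to -0.77 (highest adjusted p 0.567). Leaving out the lowest 25% of genes kept only Scarb1 and Star, so members called higher fell to 2 (2, 0, 0 and 2 for male soma against male PGC, female soma against PGC, male against female PGC and the interaction, in both tables) and those lower in read depth to 0 for the soma contrast and the interaction.
No pairing by replicate number was seen (correlations of same-numbered deviations -0.36 to 0.07 in read depth and -0.28 to 0.03 in cell number, 0 of 18 pairs over 0.1). Of differently numbered pairs, 5 of 36 were over 0.1 in either scaling, up to 0.26 in read depth and 0.22 in cell number. With 3 libraries per group, such correlations cannot exclude a shared origin. With the replicate block, 8 members were higher and 1 lower in male against female soma, and the block changed no count of called members in any comparison.
For female soma against PGC in read depth, voom called 3 higher, quantile normalization 3 lower and a minimum log2 change of 1 called 0 lower. The main test in that comparison called 42.3% of all genes higher and 38.7% lower. Where no number for all genes stands beside it, a count under an alternative is no result about the members. For female soma against PGC in cell number, median centring gave 5 higher and 1 lower, and quantile normalization or no intensity trend 4 lower. Over all genes the main calls in that comparison were 1481 higher and 9922 lower. They were 4675 and 5690 with median centring, 4583 and 5760 with quantile normalization and 1442 and 9920 with no trend. For male soma against female soma in cell number, median centring, quantile normalization and a fit of only the compared groups each called 1 lower, Hsd3b6. For male against female PGC in read depth, voom called 0 higher, and a minimum change of 1, only the compared groups or log2(CPM + 1) called 1 higher; a minimum change of 1 called 0 lower. Without single libraries, 1 to 3 were called higher. In cell number, median centring, quantile normalization and only the compared groups called 1 lower and no intensity trend 2; without single libraries, 0 to 1. In the interaction, 0 were lower without 3 female libraries, with voom or with log2(CPM + 0.1).
The values that changed sign follow; the cause was not tested. In female soma against PGC, read depth, Star was -0.60 with quantile normalization. Insl3 was -0.23 to 0.22 without single libraries and 0.29 without 3 female libraries. Crhr1 was -0.0059 to 0.049 without single libraries, -0.19 with median centring, -0.31 with quantile normalization, -0.021 with log2(CPM + 1) and -0.18 with log2(CPM + 0.1). In cell number, median centring gave 0.13 for Star and 1.502 for Cyp17a1, and Prokr2 was -0.026 to 0.88 without single libraries and -0.49 with quantile normalization. In male against female PGC, quantile normalization gave Star 0.038 in read depth and 0.23 in cell number. Without single libraries, Hsd3b1 was -0.016 to 0.68 in read depth and -0.0088 to 1.87 in cell number, and Prokr2 was -0.042 to 0.75 in read depth. The cell number interaction of Hsd3b6 was -0.26 to 0.85 without single libraries, -0.68 with median centring and -1.76 with quantile normalization.
Levels under 1 CPM rest on few reads, which limits each comparison outside male soma except for Scarb1 and, in female soma, Hsd3b6 and Hsd3b1.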
